A study of Mus musculus with 25 samples.

Results

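The genes described here are 9 NRF2 antioxidant genes of the mouse: Nfe2l2, Txnrd1, Srxn1, Gclm, Gclc, Nqo1, Prdx1, Slc7a11 and Gsr. They were taken by symbol, 1 row for each, and make up 9 of the 38087 genes in each of 2 deposited tables, 1 for leukocytes sorted from injured muscle and 1 for cultured macrophages. Muscle cells came from male C57BL/6J mice aged 2 to 4 months whose tibialis anterior muscle had been injected with cardiotoxin (CTX), a venom toxin that destroys muscle fibres. CD45+ cells were enriched on magnetic columns and sorted by antibody staining into Ly6Ghigh Ly6Cint F4/80- neutrophils at day 1 (3 samples), Ly6Clow F4/80high macrophages at day 4 (2 samples) and day 2 (3 samples), and Ly6Chigh F4/80low macrophages at day 4 (2 samples) and day 2 (3 samples). Bone marrow-derived macrophages (BMDM) were grown with the growth factor M-CSF from marrow of C57BL/6J males aged 8 to 10 weeks, re-plated without M-CSF, and 24 h later exposed to 10 nM resolvin D2 (RvD2), an omega-3-derived lipid mediator of resolving inflammation, for 4 h (3 libraries), or left untreated (3 libraries). All groups were of the same strain and carried no engineered allele by their labels. The labels name no vehicle for the untreated cells. No uninjured muscle was among the groups used. Nothing in the labels says which samples came from separate animals or cultures, so a p-value given here measures the spread between libraries, which may be technical.

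NRF2, encoded by Nfe2l2, is a transcription factor that the adaptor KEAP1 marks for degradation in resting cells. Oxidants and reactive metabolites modify KEAP1, NRF2 then accumulates, pairs with a small Maf protein and binds antioxidant response elements beside genes that make and recycle thioredoxin and glutathione. NRF2 is therefore controlled largely at the level of the protein, which RNA values do not show. In phagocytes these genes are known for balancing the oxidants made during the respiratory burst and during the uptake of dead cells, and cystine import through Slc7a11 also answers to ATF4, the factor of the amino acid stress response.

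Short promoter sequences show which of the 9 genes carry the letters of such elements close to their start. RefSeq windows of 300 bases on GRCm38.p6 (mm10), 250 before and 50 after a transcription start, held 7 of the 9 genes. Gclc and Gsr had no window. The 9-letter core of an antioxidant response element, TGACNNNGC on either strand, was in the window of Nfe2l2, Txnrd1, Srxn1, Gclm and Prdx1. It was in 12.4% of all 32851 windows, and in those of 12 of 52 other genes of the pathway. A stricter element for NRF2 paired with a small Maf protein, TGANTCAGC, was in the windows of Srxn1 and Prdx1, against 1.19% of all windows. The Prdx1 match fits the core as well, whereas the core in Srxn1 was a separate match after the start. The stricter element can contain the AP-1 site TGACTCA on either strand, which Srxn1 and Prdx1 carried as well, against 5.20% of all windows. The ATF4 element TGATGNAA occurred in Slc7a11 alone of the 7, in 2 copies, against 3.97% of all windows. The stricter element and the ATF4 element were searched after the windows had been read. By gene, the share over all 27025 genes was 1.37% for the stricter element, 5.95% for the AP-1 site and 4.51% for the ATF4 element. Nqo1 held none of these motifs. Printed below in capitals are the matched letters, read 5′ to 3′ on the strand of the gene.

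Srxn1, TGANTCAGC, chr2:152105479-152105487, plus strand: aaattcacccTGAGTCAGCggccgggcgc
Prdx1, TGANTCAGC, chr4:116685466-116685474, plus strand: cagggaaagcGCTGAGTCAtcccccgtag
Txnrd1, TGACNNNGC, chr10:82859114-82859122, plus strand: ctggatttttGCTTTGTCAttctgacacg
Gclm, TGACNNNGC, chr3:122245423-122245431, plus strand: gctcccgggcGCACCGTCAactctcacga
Nfe2l2, TGACNNNGC, chr2:75704895-75704903, minus strand: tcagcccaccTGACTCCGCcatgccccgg
Slc7a11, TGATGNAA, chr3:50443672-50443679, minus strand: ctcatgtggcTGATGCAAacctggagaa
Slc7a11, TGATGNAA, chr3:50443653-50443660, minus strand: cctggagaatTTGCATCAtcatgcagcc

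The Srxn1, Prdx1, Gclm, Nfe2l2 and Slc7a11 sites lay upstream of the RefSeq start, at bases -45 to -37, -133 to -125, -134 to -126, -240 to -232, and -66 to -59 with -47 to -40. The Txnrd1 site, at -92 to -84, lay inside the longer gene that GENCODE M21 annotates at chr10:82833951-82897712. A match is a description of letters in a window and shows no binding.

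The values are log2 normalised counts. In the BMDM table each library has a column, whereas each muscle column is what the authors averaged, on the log2 scale, over a group's samples, so no error, test or depth can be given for muscle. A muscle ratio is log2 of first over second after adding 10 normalised counts to each, which understates the change of low genes. It is called where it reaches 2-fold with 50 or more normalised counts in the higher group. Summed normalised counts were 26.0 M (M, 1000000) in neutrophils and 11.9 to 12.8 M in the macrophage groups. In the BMDM libraries an estimated 9.05 to 14.3 M reads fell in genes. Neutrophil markers summed to 345527 normalised counts in neutrophils and to 2221 to 3002 in the macrophage groups, where Csf3r was the highest and Ly6g, Camp and Ngp were listed at 0. The 6 macrophage markers found summed to 100767 in neutrophils and to 185981 to 304125 in the macrophage groups. The highest in neutrophils was the integrin gene Itgam, which neutrophils also express, at 15.86 (log2). Lyz2 was at 14.13 there, Csf1r at 13.42, Cd68 at 13.31, Emr1 at 11.07 and Mertk at 3.69. The source of these transcripts in the neutrophil column was not tested. Ly6Chigh cells at day 4 stood apart from the other macrophages: the 8 fibroblast markers summed to 23994, against 82.1 to 1726 in the other 3 groups. Dendritic cell markers summed to 1941 there, against 21.9 to 116 in those 3, T and NK cell markers to 909, against 9.25 to 37.4, and endothelial markers to 986, against 228 to 452. In sorted cells, fewer cells that express a gene and less RNA of it per cell cannot be told apart.

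Neutrophils of day 1 carried far more of this RNA than macrophages of days 2 and 4, with 1 exception. Of the 9 genes, 8 were at least 2-fold higher in neutrophils than in the mean of the 4 macrophage groups and 1, Prdx1, was lower. Over all 12058 genes at 50 or more, 30.8% were called higher and 28.7% lower. The median log2 ratio of the 9 genes was 3.12, against 0.11 for all these genes. Nqo1 reached 50 only in neutrophils and so could only be called higher. Without genes under 50 in every macrophage group, a setting added after the data were seen, 7 of 8 were called higher and 1 lower, with a median of 2.92. Over all 11268 genes left, 26.5% were called higher and 30.7% lower, with a median of -0.04. The 9 genes summed to 168085 normalised counts in neutrophils and to 15672 to 20014 in the macrophage groups. Per 1000000 normalised counts of the group that was 6464.5 in neutrophils and 1228.5 to 1596.9 in macrophages. Macrophages of day 1 are not analysed here, so day and cell type cannot be told apart.

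Slc7a11, the cystine and glutamate exchanger that brings in the cystine for glutathione, stood furthest apart (GENCODE M21, GRCm38, chr3:49892526-50443614, minus strand). Its level was 16.10 in neutrophils, against 8.49 and 8.79 in Ly6Clow cells of days 4 and 2, and 8.72 and 10.02 in Ly6Chigh cells of days 4 and 2 (log2 normalised counts). Neutrophils were 134-fold above the macrophage mean, at log2 7.06, which ranked 35 of 12058 genes.

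Gsr, glutathione reductase (chr8:33652523-33698163, plus strand), and Nqo1, a quinone reductase (chr8:107388225-107403206, minus strand), followed. Gsr was at 14.36 in neutrophils, against 8.20 and 8.89 in Ly6Clow cells and 9.47 and 10.36 in Ly6Chigh cells of days 4 and 2, and neutrophils were 34.4-fold above the mean. Nqo1 was at 9.73 in neutrophils, against 2.97 and 4.05 in Ly6Clow cells and 3.38 and 3.50 in Ly6Chigh cells of days 4 and 2. That left Nqo1 at 7.85 to 16.6 normalised counts in macrophages, near the added 10, and its ratio of 40.6-fold is understated. Every macrophage group was below neutrophils for these 3 genes.

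The thioredoxin arm was next. Txnrd1, the cytosolic thioredoxin reductase, was at 14.82 in neutrophils, against 11.20 and 11.61 in Ly6Clow cells and 11.38 and 11.76 in Ly6Chigh cells of days 4 and 2, a ratio of 10.1-fold over their mean. Srxn1 (chr2:152105516-152111376, plus strand), sulfiredoxin, which restores over-oxidised peroxiredoxins, was at 13.70 in neutrophils, against 10.29 and 10.52 in Ly6Clow cells and 10.47 and 11.04 in Ly6Chigh cells, a ratio of 8.66-fold. Prdx1 (chr4:116685544-116700822, plus strand), a peroxiredoxin that breaks down hydrogen peroxide, ran the other way. Its level was 11.08 in neutrophils, against 12.21 and 12.64 in Ly6Clow cells and 11.77 and 12.50 in Ly6Chigh cells of days 4 and 2, so neutrophils were 2.29-fold below the macrophage mean.

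The regulator and the 2 subunits of glutamate-cysteine ligase, the first enzyme of glutathione synthesis, had the smallest of the higher ratios. Nfe2l2 (chr2:75675513-75704641, minus strand) was at 14.65 in neutrophils, against 12.47 and 11.59 in Ly6Clow cells and 12.78 and 12.33 in Ly6Chigh cells of days 4 and 2, a ratio of 5.11-fold. The catalytic subunit gene Gclc (chr9:77754535-77794485, plus strand) was at 11.62 in neutrophils, against 8.39 and 9.01 in Ly6Clow cells and 8.68 and 9.43 in Ly6Chigh cells, a ratio of 6.57-fold. The modifier subunit gene Gclm (chr3:122245557-122270732, plus strand) was at 11.43 in neutrophils, against 9.33 and 9.26 in Ly6Clow cells and 8.23 and 8.77 in Ly6Chigh cells, a ratio of 5.71-fold. Gclm shares 244 exon bases, 3.88% of its exons, with the same-strand pseudogene Gm6061 and 296 with the opposite-strand transcript Gm17494, so its counts are uncertain.

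**Figure D1:**
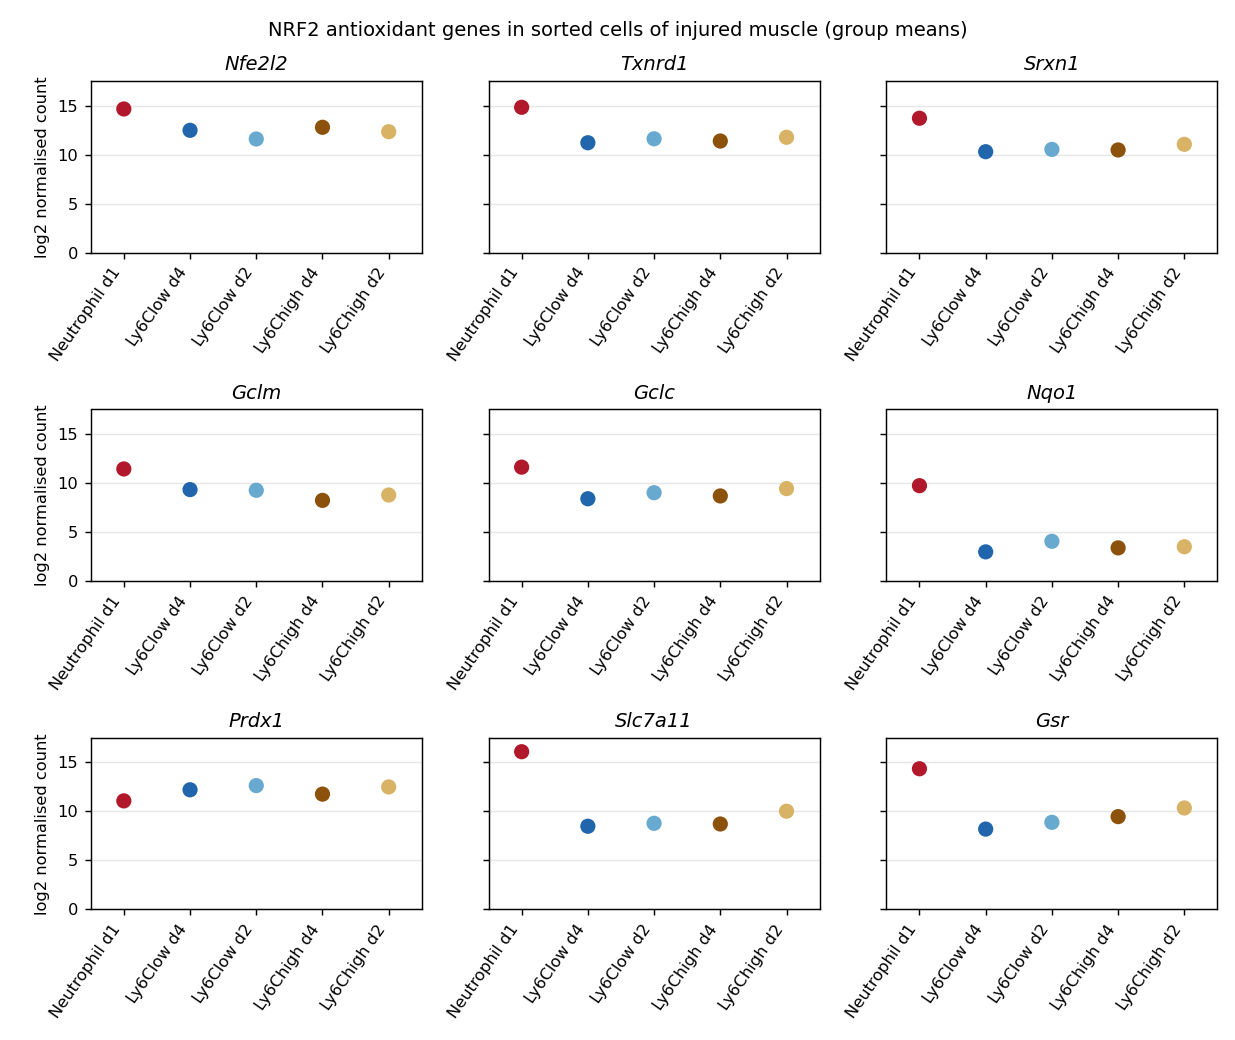
Level of each gene in log2 normalised counts (y axis, shared) in 5 sorted groups from injured muscle (x axis), where a point is the authors' mean over 2 or 3 samples and no error can be drawn. Neutrophils are the highest group for every gene but Prdx1, where they are the lowest at 11.08.

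The scale of the neutrophil column matters for sizes but not for these calls. Setting all sums equal lowered the median of all ratios by 1.11 and turned the calls over all genes from 3715 higher and 3460 lower into 1640 higher and 6506 lower. The same 8 genes were called higher and Prdx1 lower, with Slc7a11 at log2 5.92, Nfe2l2 at 1.20 and Prdx1 at -2.34. The 9 calls also stood without the Ly6Chigh group of day 4.

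Corrected for exon length, the order of genes also differed between the cell types. In neutrophils the highest levels per kilobase of exon were those of Gsr (7632 normalised counts), Nfe2l2 (6768), Slc7a11 (5039), Srxn1 (4730) and Txnrd1 (4087), and Gclm was lowest at 440. In Ly6Clow cells of day 4, Prdx1 (1558) and Nfe2l2 (1497) led, Slc7a11 was at 25.9 and Nqo1 at 5.05. In Ly6Chigh cells of day 2, Prdx1 (1908) and Nfe2l2 (1355) again led, Gsr was at 476 and Slc7a11 at 74.8.

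Among 58 further genes of the pathway, chosen by role, neutrophils were split. Over all 12058 genes at 50 or more, 30.8% were called higher and 28.7% lower. Of the 51 further genes at 50 or more, 21 were called higher and 14 lower, with a median log2 ratio of 0.34. With equal sums that became 11 higher and 23 lower, and a median of -0.78. Over all 12337 genes at 50 or more with equal sums, 1640 were called higher and 6506 lower. The median of the 12058 genes went from 0.11 to -1.0034. The sign of the list median thus did not hold across scalings and turned together with that of all genes. Under both scalings the list median was above that of all genes. Among the partners and regulators of NRF2, 6 of 8 were called higher and none lower, or 4 higher and 1 lower with equal sums. The largest ratio there was that of Maff, a small Maf protein, at 14.43 in neutrophils and 9.33 in the macrophage mean. Osgin1, an oxidative stress-induced growth inhibitor, had the largest ratio of all 58, at 13.58 in neutrophils and 7.65 in the macrophage mean. The peroxiredoxins split. Prdx4, of the endoplasmic reticulum, was lower at log2 -4.16, Prdx2 was lower at -3.75, and Prdx3 was called lower. Prdx5 and Prdx6 were called higher, Prdx5 not with equal sums. Gpx3, the secreted glutathione peroxidase, was lower at -3.79, while Ggt5, a gamma-glutamyltransferase, was higher at 4.03. Osgin1, Maff, Prdx4, Prdx2, Gpx3 and Ggt5 had the largest ratios of the 58, and each was called the same way with equal sums. Of 8 genes of the ATF4 response, 6 were called higher and 1 lower, or 5 higher and 1 lower with equal sums. Asns, Chac1 and Trib3 were under 50 in every macrophage group and could only be called higher. Of the 5 without them, 3 were called higher and 1 lower, with Atf4 at log2 2.22.

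**Figure D2:**
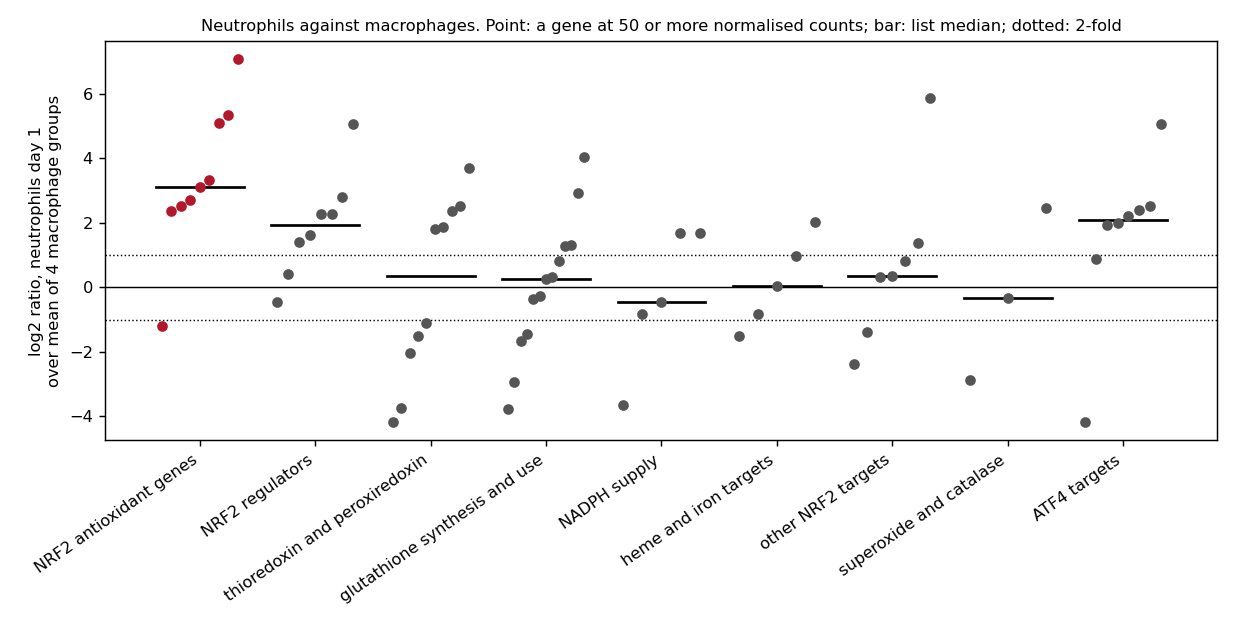
Log2 ratio of day 1 neutrophils over the mean of 4 macrophage groups (y axis) for each gene at 50 or more normalised counts, by gene list (x axis), with list medians as bars and 2-fold as dotted lines. The 9 NRF2 antioxidant genes have a median of 3.12 with Prdx1 alone below 0, whereas the thioredoxin, glutathione and NADPH lists spread on both sides of 0.

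Between macrophage subsets most of the 9 genes differed by less than 2-fold, and mostly with Ly6Clow cells lower. At day 2, Ly6Clow cells were called lower than Ly6Chigh cells for 2 of the 8 genes at 50 or more, Gsr and Slc7a11, and higher for none. Of all 11275 genes, 5.46% were called lower and 5.90% higher. Gsr was 2.72-fold lower in Ly6Clow cells, at 475 normalised counts, against 1311 in Ly6Chigh cells. Slc7a11 was 2.32-fold lower in Ly6Clow cells, at 443 normalised counts, against 1041 in Ly6Chigh cells. Nfe2l2 came next, at 3081 normalised counts in Ly6Clow cells and 5144 in Ly6Chigh cells, or 1.67-fold lower, and was not called. The median log2 ratio of the 8 was -0.46, against -0.0022 for all genes, and 6 of the 8 were below 0. Gclm and Prdx1 were the exceptions, at 0.47 and 0.14. Of cell markers at 50 or more, 3 of 3 fibroblast and 2 of 3 endothelial markers were called lower in Ly6Clow cells. Called higher there were 1 of 5 neutrophil and 1 of 6 macrophage markers. The part of other cells in the day 2 ratios was not tested.

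At day 4 the Gsr difference was present again, while Slc7a11 was under 2-fold. Ly6Clow cells were called lower for 1 of 8 genes, Gsr, and higher for 1, Gclm. Of all 11764 genes, 4.22% were called lower and 2.98% higher. Gsr was at 294 normalised counts in Ly6Clow cells and 711 in Ly6Chigh cells, 2.37-fold lower. Gclm was at 643 normalised counts in Ly6Clow cells and 300 in Ly6Chigh cells, 2.11-fold higher, a ratio that fell under 2-fold at log2 0.97 with equal sums. Slc7a11 was at 360 in Ly6Clow cells and 422 in Ly6Chigh cells. The subset ratio of Slc7a11 was -0.22 at day 4 and -1.21 at day 2, a difference of 0.99 that cannot be tested. Ly6Chigh cells of day 4 carried the fibroblast, dendritic, T and NK and endothelial cell markers given above, whose part in these ratios was not tested.

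Between days, 1 of the 9 genes was called in Ly6Chigh cells and none in Ly6Clow cells. In Ly6Chigh cells, day 4 was called lower for 1 of 8 genes, Slc7a11, and higher for none. Of all 11618 genes, 3.74% were called lower and 9.67% higher. Slc7a11 was at 422 normalised counts at day 4 and 1041 at day 2, 2.43-fold lower. Gsr, at 711 at day 4 and 1311 at day 2, was 1.83-fold lower. The median log2 ratio of the 8 was -0.65, against -0.01 for all genes, and Nfe2l2 alone of the 8 was above 0. Summed fibroblast markers also differed, at 23994 normalised counts at day 4 and 248 at day 2, with 8 of 8 called higher. Of 5 neutrophil markers at 50 or more, 2 were called lower and 1 higher at day 4. The part of these cells was not tested.

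In Ly6Clow cells, none of 8 genes was called in either direction between days. Of all 11560 genes, 8.08% were called higher and 3.24% lower. Nfe2l2 had the largest ratio, at 5681 normalised counts at day 4 and 3081 at day 2, or 1.84-fold higher. Gsr was at 294 at day 4 and 475 at day 2, and Gclc was at 336 at day 4 and 515 at day 2. The median log2 ratio of the 8 was -0.35, against -0.01 for all genes. Gclm was close to 0, at 0.07. Markers of other cells also differed. Fibroblast markers summed to 1726 at day 4 and 82.1 at day 2, with 4 of 4 at 50 or more called higher, and skeletal muscle markers to 1577 at day 4 and 311 at day 2, with 7 of 7 called higher. Of 5 neutrophil markers at 50 or more, 4 were called lower at day 4 (median log2 ratio -1.37 over the 5), and Ly6g, Camp and Ngp were at 0 on both days. The part of these cells in the ratios was not tested. Nfe2l2 was above 0 and Gsr, Gclc, Prdx1, Srxn1, Txnrd1 and Slc7a11 below 0 in both subsets. The day comparisons of the subsets share no group, whereas each subset comparison shares a group with both. Nqo1 was under 50 normalised counts in every macrophage group and entered none of the counts between macrophage groups.

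**Figure D3:**
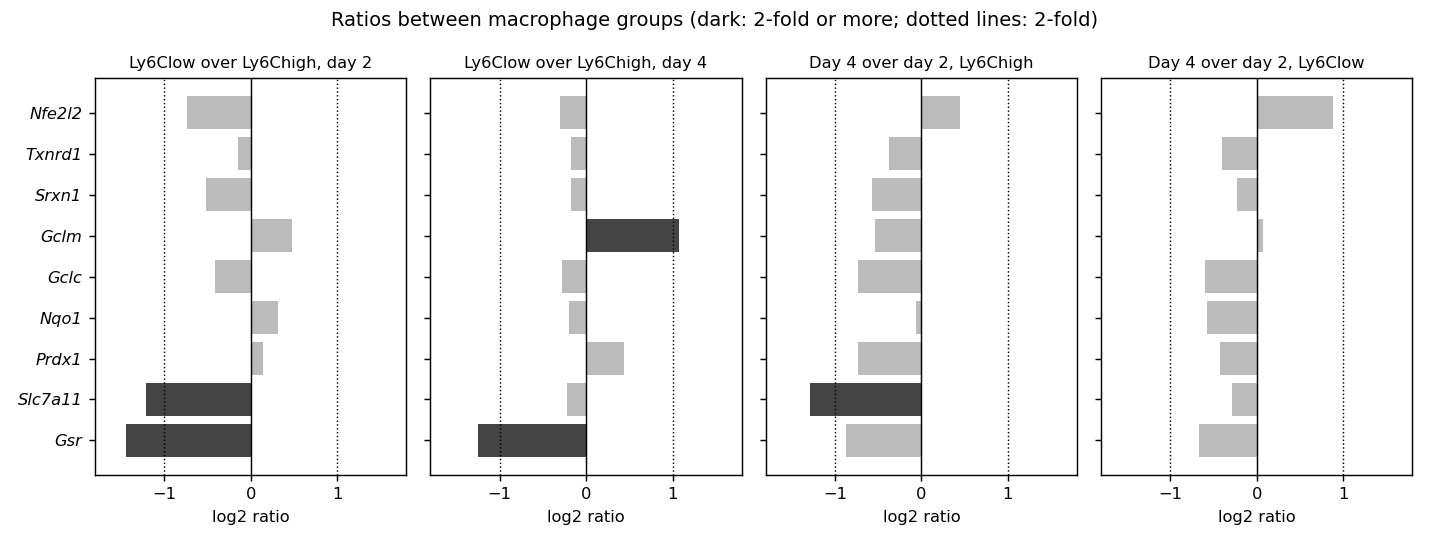
Log2 ratios (x axis) of the 9 genes (y axis) for 4 comparisons of macrophage groups from muscle, with dark bars at 2-fold or more and dotted lines at 2-fold. Dark bars are Slc7a11 and Gsr at day 2 and Gclm and Gsr at day 4 between subsets, and Slc7a11 between days in Ly6Chigh cells.

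Ordered by level, the 4 macrophage groups ran alike for Txnrd1, Srxn1, Gclc and Slc7a11: Ly6Chigh day 2, Ly6Clow day 2, Ly6Chigh day 4 and Ly6Clow day 4, high to low. Gsr ran Ly6Chigh day 2, Ly6Chigh day 4, Ly6Clow day 2 and Ly6Clow day 4. Over the 4 groups the log2 range was widest for Gsr (2.15) and Slc7a11 (1.53) and narrowest for Txnrd1 (0.56). Without replicate columns it cannot be said which neighbours in these orders differ.

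For the rest of the pathway, 49 further genes were at 50 or more at day 2. Of these, 6 were called higher and 2 lower in Ly6Clow than in Ly6Chigh cells. Their median log2 ratio was 0.08, and of all genes 5.90% were called higher and 5.46% lower. At day 4, 6 of 51 were called higher and 1 lower, with a median of 0.20, against 2.98% and 4.22% of all genes. The largest at day 2 were the glutathione S-transferase genes Mgst3, at log2 1.55, and Gstp1, at -1.34, the small Maf gene Maff, at -1.55, the isocitrate dehydrogenase gene Idh1, which makes NADPH, at 1.31, the biliverdin reductase gene Blvrb, at 1.29, and Gpx3, at 1.27. At day 4 the extracellular superoxide dismutase gene Sod3, at -2.70, and the epoxide hydrolase gene Ephx1, at 2.11, were furthest apart. Between days, day 4 was called higher for 5 and lower for 3 of 51 genes in Ly6Chigh cells, and higher for 5 and lower for 2 of 51 in Ly6Clow cells. Of all genes, 9.67% were called higher and 3.74% lower in Ly6Chigh cells, and 8.08% and 3.24% in Ly6Clow cells. The counts were near these shares. In Ly6Chigh cells the largest was Sod3, at 3.42. In Ly6Clow cells the largest were Ephx1, at 3.67, Ggt5, at 3.32, and the thioredoxin inhibitor gene Txnip, at 1.95. Ephx1, Ggt5 and Txnip were also called higher at day 4 in Ly6Chigh cells. Fibroblast and skeletal muscle markers differed between days in both subsets as well, and their part was not tested. Hmox1, which breaks down heme, was lower at day 4, at -1.21 in Ly6Chigh cells and -1.12 in Ly6Clow cells.

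Across the 5 muscle groups, the genes with the most similar profile were found by the root mean square distance between log2 profiles centred on their mean, among 12837 genes. For Nfe2l2 they were Fam13b (0.05), AC140205.5 (0.07) and D930015E06Rik (0.09). For Txnrd1 they were Ahi1 (0.11), Gm340 (0.11) and Rdh11 (0.12). For Slc7a11 they were 9130230L23Rik (0.28), AC122525.1 (0.30) and the glucose transporter gene Slc2a3 (0.34). These are descriptions over 5 group means that one neutrophil column dominates.

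In cultured macrophages, 2 of the 9 genes passed as lower after 4 h of RvD2, those of the thioredoxin and glutathione reductases. Txnrd1 and Gsr fell, and no gene rose, by limma with Benjamini-Hochberg adjustment over 15239 genes. Over all genes tested, 1.06% passed as lower and 0.794% as higher. All 9 fold changes were below 0, with a median of -0.34 on the log2 scale, against -0.0028 for all genes tested. The 9 genes summed to 32267 to 40756 normalised counts in RvD2 libraries and to 41989 to 48640 in untreated libraries.

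Gsr was at 10.44, 10.49 and 10.40 in the 3 RvD2 libraries, against 10.88, 11.03 and 10.93 in the 3 untreated libraries (log2 normalised counts). Every RvD2 library was below every untreated one, and the gap between the groups exceeded the range within either. Gsr fell by 0.50 on the log2 scale (SE 0.06, limma adjusted p = 0.00693), to 70.5% of the untreated level. It ranked 34 of 15239 genes by p and passed without each library in turn.

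Txnrd1 was at 13.08, 13.37 and 13.15 in RvD2 libraries, against 13.68, 13.81 and 13.78 in untreated libraries. The groups did not overlap. Txnrd1 fell by 0.55 (SE 0.08, limma adjusted p = 0.0138), to 68.1% of the untreated level. Its adjusted p was above 0.05 without untreated replicate 2 (0.0737), untreated replicate 3 (0.0515) or RvD2 replicate 3 (0.0842), with fold changes of -0.64 to -0.49 over the 6 omissions. Without the mean-variance trend neither gene passed, at limma adjusted p = 0.0908 for Txnrd1 and 0.0609 for Gsr.

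Srxn1 and Gclc did not overlap between the groups but did not pass in the fit as reported. With the replicate number as a block, Srxn1, Gclc and Gclm passed as well (limma adjusted p = 0.00088, 0.00198 and 0.00585). In that fit 5 of the 9 passed as lower, against 3.77% of all genes tested. Whether the numbers mark shared batches is not known. Srxn1 was at 12.19, 12.57 and 12.46 in RvD2 libraries, against 12.62, 12.93 and 13.02 in untreated libraries, a difference of -0.45 (SE 0.12, limma adjusted p = 0.114). Gclc was at 10.37, 10.64 and 10.52 in RvD2 libraries, against 10.76, 10.97 and 10.90 in untreated libraries, a difference of -0.37 (SE 0.08, limma adjusted p = 0.0681). Slc7a11 was at 9.61, 9.64 and 9.63 in RvD2 libraries, against 9.68, 9.84 and 9.86 in untreated libraries. Its groups were also apart, by a small step of -0.16 (SE 0.06, limma adjusted p = 0.271). Thus 5 of the 9 genes had every RvD2 library below every untreated one, against 11.7% of all genes tested.

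The remaining 4 overlapped. Gclm was at 11.97, 12.36 and 12.30 in RvD2 libraries, against 12.33, 12.59 and 12.53 in untreated libraries (-0.27, 95% interval -0.52 to -0.03, limma adjusted p = 0.271). Nqo1 was at 7.59, 7.99 and 7.44 in RvD2 libraries, against 7.71, 8.34 and 7.97 in untreated libraries (-0.34, 95% interval -0.75 to 0.08, limma adjusted p = 0.43). Prdx1 was at 13.10, 13.58 and 13.45 in RvD2 libraries, against 13.32, 13.60 and 13.59 in untreated libraries (-0.13, 95% interval -0.41 to 0.15, limma adjusted p = 0.70). The RvD2 library of replicate 1 was the lowest of its group for 7 of the 9 genes, and the untreated library of replicate 1 for 8.

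Nfe2l2, the regulator, had the smallest difference of all. It was at 11.23, 11.30 and 11.41 in RvD2 libraries, against 11.31, 11.29 and 11.39 in untreated libraries. The difference was -0.02 (95% interval -0.15 to 0.12, limma adjusted p = 0.933).

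**Figure D4:**
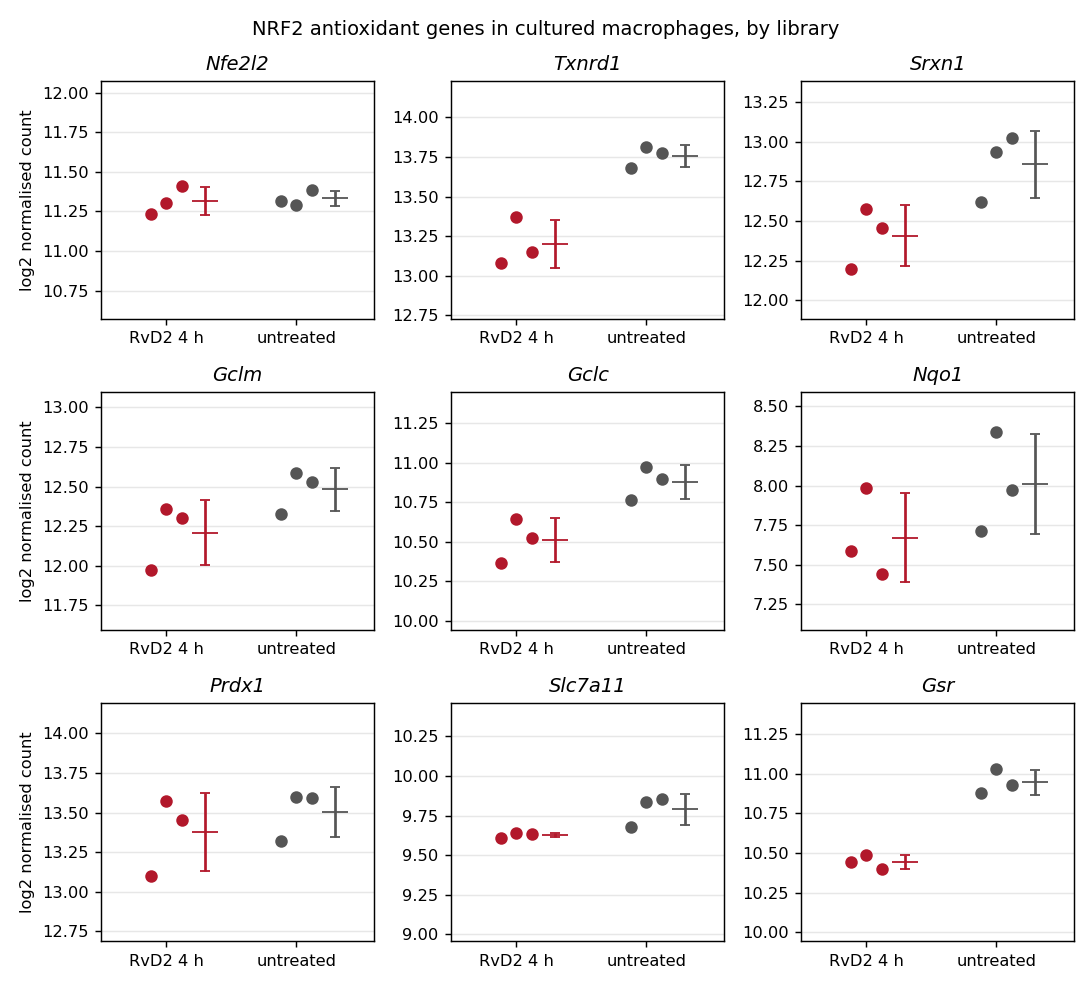
Log2 normalised counts (y axes, each spanning 1.5 log2 units) of the 9 genes in RvD2 and untreated cultured macrophages, with a point per library and the mean ± SD beside them (n = 3 each). Gsr and Txnrd1 show separate groups, at means of 10.44 and 13.20 with RvD2 and 10.95 and 13.76 untreated, while Nfe2l2 overlaps.

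Per kilobase of exon, the cultured cells had Prdx1 highest (3526 ± 576 normalised counts with RvD2 and 3830 ± 400.4 untreated, SD, n = 3 each). Srxn1 (1939 ± 255 with RvD2 and 2652 ± 374 untreated) and Txnrd1 (1335 ± 143 with RvD2 and 1955 ± 94.5 untreated) came next. Slc7a11 (56.8 ± 0.598 with RvD2 and 63.7 ± 4.29 untreated) was lowest, by the same exon lengths as in muscle. The muscle and BMDM tables were normalised separately, so these levels are not set against muscle.

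In the rest of the pathway, of 57 further genes tested, 1 fell, Mafg, and none rose, with a median fold change of -0.05. That count is near the share over all genes, of which 1.06% passed as lower and 0.794% as higher. Mafg, a small Maf protein that pairs with NRF2, was at 10.91, 10.95 and 10.94 in RvD2 libraries, against 11.18, 11.20 and 11.36 in untreated libraries. It fell by 0.32 (SE 0.06, limma adjusted p = 0.0399). Keap1 did not pass, at -0.25 (limma adjusted p = 0.175). In the glutathione list, 5 of 16 genes had fold changes above 0 and 11 below, and all 6 genes of NADPH supply were below 0, with a median of -0.06 in both lists and no calls.

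Slc7a11 is also a known target of ATF4. Of 9 genes of the ATF4 response tested, 5 rose and none fell, with a median of 0.39. Of all genes tested, 0.794% passed as higher and 1.06% as lower. Trib3, a pseudokinase, rose by 1.27 (SE 0.11, limma adjusted p = 0.00279) and Chac1, which breaks down glutathione, by 1.32 (SE 0.19, limma adjusted p = 0.0132). Atf4 itself was at 12.12, 12.06 and 12.09 in RvD2 libraries, against 11.69, 11.69 and 11.71 in untreated libraries, and rose by 0.39. The 95% interval of Slc7a11 was -0.31 to -0.02. Summed cell markers overlapped between the groups: macrophage markers summed to 100990 to 126250 normalised counts in RvD2 and 95948 to 124250 in untreated libraries, and fibroblast markers to 34980 to 55021 in RvD2 and 39332 to 45883 in untreated libraries. Neutrophil markers summed to 4867 to 9655 in RvD2 and 4792 to 15544 in untreated libraries. Of 10 tested, 9 had fold changes below 0, with a median of -0.27, and none passed. Endothelial markers were above 0 in 4 of 4 tested, with a median of 0.30, and none passed. The part of these cells in the lower levels of Txnrd1 and Gsr was not tested.

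**Figure D5:**
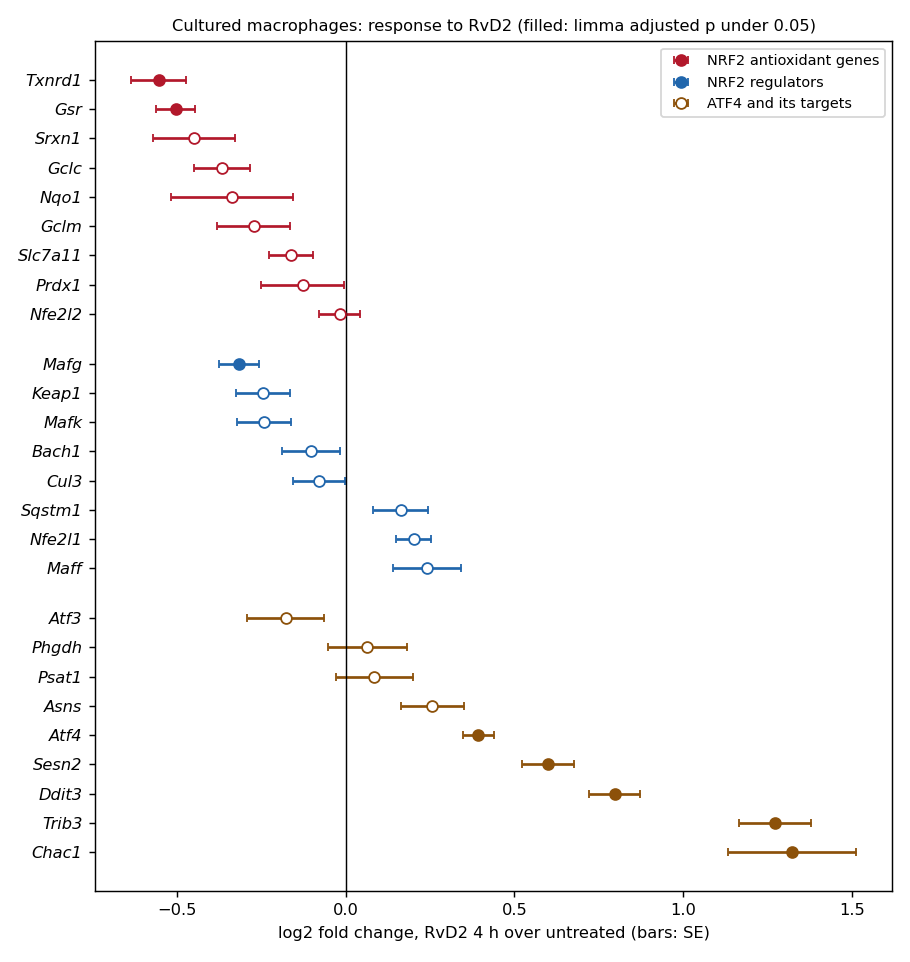
Log2 fold change of RvD2 over untreated cultured macrophages (x axis) with SE as bars, for the 9 NRF2 antioxidant genes, 8 NRF2 regulators and 9 genes of the ATF4 response (y axis), filled where the limma adjusted p is under 0.05. Filled points are Txnrd1, Gsr and Mafg below 0 and Atf4, Sesn2, Ddit3, Trib3 and Chac1 above 0.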

How the data were processed

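Poly-A RNA was sequenced with TruSeq libraries on a HiSeq, per the labels' protocols. TopHat2 2.0.7, DESeq and the build mm10 were used, per the submitters' processing notes. The sources used here name no annotation for the counting, and the kit as described marks no strand. The deposited tables hold log2 normalised counts by the authors, with values under 1 listed at 0, a unit read from the values. The BMDM table has 6 library columns. The muscle table has 5 group columns, each the authors' mean of log2 values over 2 or 3 samples, so muscle ratios carry no replicate check. No column belongs to a sample outside the series. Of 25 samples, 6 from 2 groups (Ly6Chigh cells of day 1 and blood monocytes) have no column and were not analysed here.

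BMDM genes with a mean normalised count of 10 or more were tested with limma 3.58.1 in R 4.3.3, with a trend of variance on level. Tests were two-sided, with Benjamini-Hochberg adjustment over all 15239 genes and a threshold of 0.05. On simulated data the script recovered 48% of 100 genes changed by 0.5 on the log2 scale and 84% of 100 changed by 1. It made 9 false calls among 15154 genes. Changes of the size seen for the 9 genes can thus go uncalled. Muscle ratios used a pseudocount of 10, a level of 50 and 2-fold. Read depth in the BMDM libraries was estimated from the smallest step between low values. Only 41.7 to 54.8% of low values were whole multiples of that step within 0.02, so no count test was run. Depth is unknown for muscle.

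All 9 genes are named. Of other pathway genes, at most 6 called in a comparison are named, largest change first, and 3 genes per profile search. Regulators, ATF4 genes, peroxiredoxins and genes called between days in both subsets were also named as context. The 9 genes and all lists were chosen with earlier results of these data known. Coordinates come from GENCODE M21 on GRCm38, which held 36308 of the 38087 identifiers, and promoter windows from RefSeq. Alternatives covered filters, pseudocounts, scaling, thresholds, the replicate number as a block and each library left out in turn.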

Additional observations from a re-analysis of the deposited data

How the results depend on the processing

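In cultured macrophages, 2 of the 9 genes passed in the fit as reported, out of 283 genes in all. Without a filter 1 passed (Gsr) out of 137, and without the mean-variance trend 0 passed out of 49, with 2174 genes at an unadjusted p under 0.05 by limma. A threshold of 0.1 gave 609 genes in all. Leaving out 1 library gave 1 to 2 of the 9 and 79 to 288 genes in all, the lowest being without RvD2 replicate 3. Fold changes of the 9 under omission kept direction and call in 48 of 54 cases. Direction turned for Nfe2l2, which ranged from -0.065 to 0.0226 and was above 0 without untreated replicate 3 or RvD2 replicate 1, and for Prdx1, which ranged from -0.2272 to 0.0094 and was above 0 without RvD2 replicate 1. Whether the replicate numbers pair the samples is not settled, since no label says that a number marks a shared batch. Deviations of same-numbered libraries correlated at 0.29, 0.02 and 0.05, while RvD2 replicate 3 correlated best with untreated replicate 2, at 0.19. For the 9 genes, replicate 1 was the lowest RvD2 library for 7 and the lowest untreated library for 8. With the replicate number as a block, 5 of the 9 passed, all lower (Txnrd1, Srxn1, Gclm, Gclc and Gsr), and 1066 genes in all. Of those 1066, 574 were lower, or 3.77% of the 15239 genes tested. No paired analysis was possible in muscle because its columns are group means.

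In muscle, a pseudocount of 50 called 830 genes between subsets at day 2, 552 at day 4 (with 1 of the 9, Gsr) and 1033 between days in Ly6Chigh cells. Equal sums left 1 of the 9 called between subsets at day 4, and moved the split there to 32.8% of calls higher, against 41.4%. No level filter called 2346 genes between days in Ly6Chigh cells. A 1.5-fold limit called 3002 of 11275 genes at day 2 and 2208 of 11764 at day 4 between subsets. Between days in Ly6Chigh cells it called 3402 of 11618 genes, 2076 higher and 1326 lower, with 4 of the 9, all lower. In Ly6Clow cells it called 3276 of 11560 genes, 1805 higher and 1471 lower. Those held 3 of the 9, with Nfe2l2 higher and Gsr and Gclc lower. Of 324 gene values under these settings, 315 kept their call. Group means without replicates limit every muscle statement.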
